A study of Mus musculus with 6 samples.

Results

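The nuclear genes of oxidative phosphorylation were examined in RNA-seq libraries of microglia, the resident macrophages of the brain, from MRL/lpr and MRL/mpj mice. The genes were the protein-coding rows of the count table whose symbols began with Ndufa, Ndufb, Ndufc, Ndufs, Ndufv, Uqcr, Cox4, Cox5, Cox6, Cox7, Cox8 or Atp5, together with Sdha, Sdhb, Sdhc and Sdhd. This gave 94 of 55401 gene rows. Of these, 83 encode subunits of the respiratory chain or ATP synthase, and 11 were caught by the prefixes without being subunits (Ndufaf1 to Ndufaf8, Ndufa4l2, Cox7a2l and Atp5s). MRL/lpr mice carry the lpr allele of Fas, the gene of a death receptor, on the MRL/MpJ background and develop lupus-like disease. MRL/mpj mice of the same background, without the allele, were the controls. Each strain had 3 libraries from untreated animals at 6 weeks of age. Microglia were taken from brain with beads against CD11b. A figure legend of the paper gives n = 3 for the mice of each strain. The sources used here do not say whether animals were pooled for a library, so the p-values measure the spread between these libraries only.

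Complex I (NADH dehydrogenase) and complex II (succinate dehydrogenase) feed electrons to ubiquinone. Complex III passes them to cytochrome c, and complex IV (cytochrome c oxidase) passes them to oxygen. The proton gradient built by complexes I, III and IV drives complex V, the ATP synthase. Complex II is encoded by nuclear genes alone, whereas the other complexes also hold subunits encoded by the mitochondrial genome. In microglia, a shift from respiration towards glycolysis is a known part of inflammatory activation.

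Total counts per library were between 45481609 and 49846634. The 94 genes took 0.274% to 0.287% of the counts in MRL/lpr and 0.321% to 0.343% in MRL/mpj. All 7 microglial markers examined were detected in both strains, with summed levels of 20826 to 23761 CPM (counts scaled to a common library size by TMM). Of these markers 1 fell (14.3%, against 9.06% of all genes tested) and 0 rose. The log2 fold changes of these markers, MRL/lpr over MRL/mpj, ran from -0.67 to 0.97. Xist, the X-inactivation RNA of female cells, had 8886 to 11319 counts in MRL/lpr but only 27 to 38 in MRL/mpj. The Y-linked gene Ddx3y was present in both strains, with 3690 to 5720 counts in MRL/lpr and 5505 to 7559 in MRL/mpj. Kdm5d and Eif2s3y, also Y-linked, were lower in every MRL/lpr library than in any MRL/mpj library. Their log2 fold changes were -0.59 (SE 0.09) and -0.34 (SE 0.11). Y-linked Uty overlapped between the strains (0.07, SE 0.13). The methods describe female mice. Every difference given here therefore sets libraries with both Xist and Y-linked RNA against libraries with Y-linked RNA and almost no Xist, and the parts of strain and sex cannot be told apart. MRL/lpr replicate 3 stood apart in the gene CT010467.1, which took 6.38% of its counts and at most 0.457% of those of any other library.

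Most nuclear oxidative phosphorylation genes had slightly lower levels in MRL/lpr microglia, and few of them passed the test. Of the 94 genes, 91 passed the filter on low counts, and Cox7b2, Cox8c and a duplicate identifier of Atp5o had 0 counts in every library. At an adjusted p under 0.05 (quasi-likelihood test of edgeR, with the Benjamini-Hochberg adjustment over 19554 genes), 9 of the 91 fell and none rose. That is 9.89% called lower, against 9.06% of all genes tested called lower and 11.1% called higher, so the share of lower calls in this fit was near that of all genes. Among the 14955 protein-coding genes tested, 10.8% were called lower. Of the 80 tested genes that encode subunits, 7 were called lower (8.75%). At an unadjusted p under 0.05, 19 genes were lower and 0 higher, against 15.5% and 16.3% of all genes. In DESeq2, 11 fell and 0 rose (12.1% lower, against 8.77% of the 23182 genes given an adjusted p), and among the genes of the edgeR fit it called 1962 of 19541 lower. In edgeR without the filter on low counts the share of all genes called lower was 5.60% (of 30602 genes), with 9 of the 91 genes lower. Among the 19554 genes that pass the filter, that fit called 1701 lower (8.7%).

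The fold changes leaned to one side. The log2 fold change of MRL/lpr over MRL/mpj was negative for 75 of the 91 genes (82.4%), against 51.0% of all genes tested. Its median was -0.19 over the 91 genes and -0.01 over all genes. All 3 MRL/lpr libraries lay below all 3 MRL/mpj libraries for 25 of the 91 genes (27.5%), and above them for 0. Over all genes tested these shares were 19.4% and 19.6%. Among the 14955 protein-coding genes tested, 22.2% lay below in this way, 53.6% had a negative fold change and the median was -0.03. With the study's minimum of 1 on the log2 scale, Cox6a2 alone was called, whereas 3.66% of all genes were called lower and 4.67% higher by that rule.

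The count of lower calls depended on single libraries. It was 5 (5.49%) without MRL/lpr replicate 1 or without MRL/lpr replicate 2, where 6.88% and 6.86% of all genes were called lower. It was 12 (13.2%, against 9.64%) without MRL/lpr replicate 3. It was 3 (3.30%) without MRL/mpj replicate 1 or without MRL/mpj replicate 2, where 5.75% and 5.88% of all genes were lower, and 6 (6.59%, against 5.79%) without MRL/mpj replicate 3. Scaling by library size alone shifted the median of all genes to -0.13 and that of the 91 genes to -0.32, and left their difference at -0.18. Under that scaling 19 of the 91 genes were lower (20.9%, against 14.3% of all genes lower and 8.36% higher). Sdhb, Cox6a2 and Atp5s passed the test in all 16 fits, and none of the other 6 did.

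**Figure D1:**
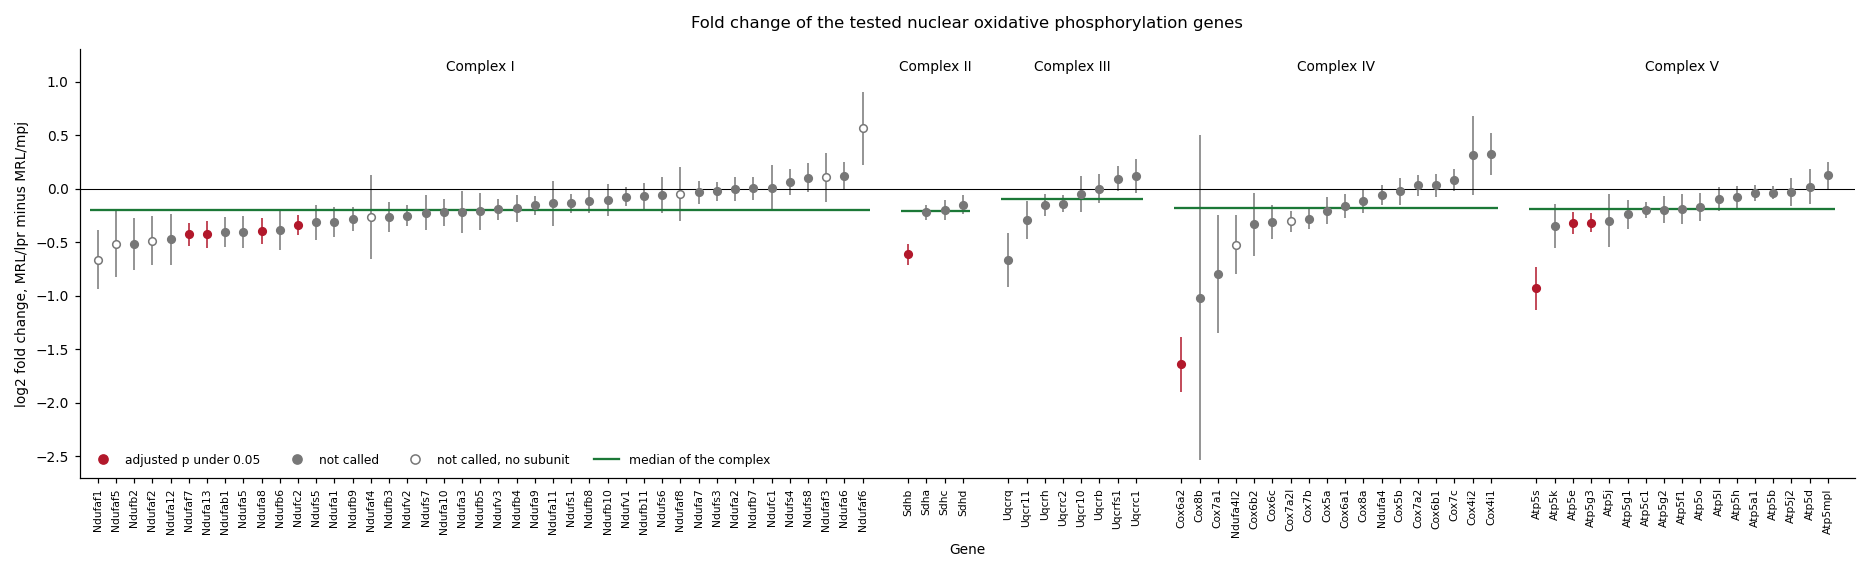
Log2 fold change of 90 of the 91 tested genes (y axis, MRL/lpr minus MRL/mpj, bars are the standard error of the fit, 3 libraries per strain), ordered within each complex, with the 9 genes called lower in red and the median of each complex as a green line. Every complex has a median below 0, from -0.21 for complex II to -0.10 for complex III, and Cox6a2 lies lowest at -1.64.

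Complex II, succinate dehydrogenase, had the lowest median fold change of the complexes, close to the -0.20 of complex I. All 4 genes were negative, with a median of -0.21, and 1 of the 4 was called (25.0%, against 9.06% of all genes tested). Sdhb encodes the iron-sulfur subunit that passes electrons from the flavoprotein to ubiquinone. It was measured at 33.6, 34.8 and 40.8 CPM in MRL/lpr and at 52.8, 60.2 and 54.3 CPM in MRL/mpj. The strains did not overlap, and Sdhb fell by 0.62 on the log2 scale (SE 0.10, adjusted p = 0.00233, edgeR's quasi-likelihood test). This is a fall of 34.7%, since the level in MRL/lpr was 0.653 of that in MRL/mpj. Sdha, the flavoprotein that oxidises succinate, stood at 151, 145 and 166 CPM against 180, 176 and 183 CPM. These libraries did not overlap either, but the difference of -0.22 (SE 0.07) just missed the threshold in edgeR (adjusted p = 0.0520). Sdha was called lower in 3 of 15 other fits, DESeq2 among them. Sdhc and Sdhd anchor the enzyme in the inner membrane. Their log2 fold changes were -0.20 (SE 0.09, edgeR adjusted p = 0.174) and -0.15 (SE 0.09, edgeR adjusted p = 0.290). Within each library, there were 22.3, 23.9 and 24.6 counts of Sdhb per 100 of Sdha in MRL/lpr and 29.4, 34.1 and 29.7 in MRL/mpj, a log2 difference of -0.39 (exact permutation test, two-sided, p = 0.1, the smallest that 3 against 3 libraries can give).

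Sequence upstream of the start site was compared for 76 of the 94 genes, those matched in RefSeq's promoter windows (build GRCm38.p6, 250 bases before to 50 after the start). The search covered both strands for motifs of factors known to act on respiratory genes. The NRF1 motif GCGCANGCG was found for 22 of the 76 genes (28.9%) and for 7.03% of all 27025 genes in the windows. The ETS motif CCGGAAG, bound by GABPA, was found for 18 (23.7%, against 9.93%), and the YY1 motif AAGATGGCG for 8 (10.5%, against 1.64%). Matches of different motifs were counted separately, whether or not they overlapped. Among the 9 genes called lower, Cox6a2 was not matched, Ndufa8 and Atp5g3 held the NRF1 motif, Sdhb and Atp5e held the ETS motif, and Ndufaf7, Ndufc2, Ndufa13 and Atp5s held none of these letters in their windows. The sequences printed here are the untranscribed part of the 150 bases before the start, 5′ to 3′ on the gene's strand, for the complex II pair, for Cox6a1 (the widely expressed partner of Cox6a2) and for Atp5e. Capitals mark NRF1 and ETS matches. They lie at chr13:74350281-74350390 (minus strand) for Sdha, chr4:140961121-140961202 (plus strand) for Sdhb, chr5:115348982-115349108 (minus strand) for Cox6a1 and chr2:174464106-174464251 (minus strand) for Atp5e.
Sdha: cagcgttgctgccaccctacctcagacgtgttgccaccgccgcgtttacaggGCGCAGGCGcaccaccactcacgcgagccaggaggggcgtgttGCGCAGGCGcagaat
Sdhb: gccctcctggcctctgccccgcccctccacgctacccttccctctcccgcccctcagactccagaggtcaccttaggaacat
Cox6a1: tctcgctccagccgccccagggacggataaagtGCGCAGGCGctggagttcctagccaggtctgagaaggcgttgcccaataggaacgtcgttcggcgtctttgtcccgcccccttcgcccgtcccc
Atp5e: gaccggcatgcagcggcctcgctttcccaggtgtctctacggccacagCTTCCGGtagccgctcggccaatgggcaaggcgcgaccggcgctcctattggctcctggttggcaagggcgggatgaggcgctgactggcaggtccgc
The Sdha stretch holds 2 NRF1 matches, and that of Cox6a1 holds 1. The Atp5e stretch holds 1 ETS match, read on the opposite strand. The Sdhb stretch holds none, so its ETS match lies outside the printed bases. A match is a description of the letters and not evidence of binding.

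Complex I contributed 44 genes, of which 4 were called lower (9.09%, against 9.06% of all genes tested) and 0 higher. Complex I had a median log2 fold change of -0.20. Its 29 accessory subunits surround the catalytic core and are needed for its assembly and stability. In this group 3 genes fell (10.3%), 25 had a negative fold change and the median was -0.21. Ndufc2, an accessory subunit of the membrane arm, was at 24.9, 25.3 and 23.1 CPM in MRL/lpr and at 31.7, 32.7 and 28.5 CPM in MRL/mpj. It fell by 0.34 on the log2 scale (SE 0.10, edgeR adjusted p = 0.0333), without overlap between the strains. Ndufa13, also known as GRIM-19, was at 15.9, 15.8 and 18.9 CPM against 25.0, 22.7 and 20.2 CPM. It fell by 0.43 (SE 0.12, edgeR adjusted p = 0.0381), and the highest MRL/lpr library came within 1 SD of the lowest MRL/mpj library. Ndufa8, a cysteine-rich subunit on the intermembrane side, was at 21.8, 18.1 and 20.8 CPM against 30.4, 23.9 and 25.8 CPM and fell by 0.40 (SE 0.12, edgeR adjusted p = 0.0475). Ndufa8 lost its call when any of the 6 libraries was left out.

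The 7 nuclear core subunits of complex I, which carry the flavin and the iron-sulfur clusters, showed smaller differences. None was called, 6 had a negative fold change and the median was -0.12. Ndufv2 was the core subunit with no overlap between strains, at 22.0 ± 1.88 CPM against 26.2 ± 1.19 CPM (SD, n = 3 each). Ndufs8 leaned the other way, with a log2 fold change of 0.10 (SE 0.14).

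The 8 assembly factors of complex I caught by the prefixes had a median of -0.35. In this group 1 gene fell (12.5%, against 9.06% of all genes tested). Ndufaf7, a methyltransferase that acts during assembly, was at 20.5, 22.5 and 18.02 CPM in MRL/lpr and at 27.7, 27.0 and 27.5 CPM in MRL/mpj. The strains did not overlap, and it fell by 0.43 on the log2 scale (SE 0.11, edgeR adjusted p = 0.0196). The value of Ndufaf7 is uncertain, because 8 other loci share a stretch of its sequence and held 115100 counts over the 6 libraries, against 6985 for Ndufaf7 itself. Ndufaf6 had the highest fold change of the 91 genes, 0.56 (SE 0.34, edgeR adjusted p = 0.305). Its libraries overlapped, at 4.11, 3.99 and 1.84 CPM against 1.98, 2.76 and 1.999 CPM, with MRL/lpr replicate 3 among the control values.

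Complex III contributed 8 genes, with a median log2 fold change of -0.10 and no call. Uqcrc1 and Uqcrc2 encode its core proteins and Uqcrfs1 the Rieske iron-sulfur protein. Their fold changes were 0.11 (SE 0.16), -0.14 (SE 0.08) and 0.09 (SE 0.12). Uqcrq, a small subunit, had the lowest fold change of the complex, -0.67 (SE 0.25, edgeR adjusted p = 0.114). Its levels were 16.9, 8.39 and 16.5 CPM in MRL/lpr and 23.7, 23.6 and 19.1 CPM in MRL/mpj. No library of one strain reached the other, but MRL/lpr replicate 2 lay well below its fellows.

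Complex IV contributed 20 genes, of which 18 were tested and 1 was called lower (5.56%, against 9.06% of all genes tested). The 10 isoforms found in most tissues had a median log2 fold change of -0.07 and no call, and 6 of them were negative. The call in this complex was a tissue isoform. Cox6a2, the form of subunit VIa known from heart and skeletal muscle, was at 1.68, 1.98 and 1.58 CPM in MRL/lpr and at 5.60, 4.04 and 6.73 CPM in MRL/mpj. The lowest control library was above the highest MRL/lpr library, and Cox6a2 fell by 1.64 on the log2 scale (SE 0.26, edgeR adjusted p = 0.00176). Cox6a1, the widely expressed form, was at 41.1 ± 3.69 CPM against 46.0 ± 5.34 CPM (SD, n = 3 each) and had overlapping libraries, with a log2 fold change of -0.16 (SE 0.11, edgeR adjusted p = 0.369). Cox6a2 therefore gave 4.16, 5.21 and 3.50 counts per 100 counts of Cox6a1 in MRL/lpr and 12.1, 7.90 and 16.6 in MRL/mpj (log2 difference -1.46, exact permutation test, two-sided, p = 0.1).

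Cox6a2 shares 70 of its 680 exonic bases with Itgad, a gene on the opposite strand that encodes the leukocyte integrin subunit CD11d. Itgad was at 1.66, 2.36 and 2.42 CPM in MRL/lpr and at 8.11, 7.42 and 7.17 CPM in MRL/mpj, a log2 fold change of -1.82 (SE 0.21, edgeR adjusted p = 0.000324). Both genes were thus lower in all 3 MRL/lpr libraries. The sources used here do not say whether the counting used strand, so reads of the 2 genes in the shared bases cannot be told apart. The part of Itgad in the Cox6a2 difference was not tested.

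The other isoform pairs of complex IV did not pass the test. Cox4i1 was at 92.7, 105 and 128 CPM in MRL/lpr and at 79.7, 69.0 and 112 CPM in MRL/mpj, a log2 fold change of 0.32 (SE 0.20, edgeR adjusted p = 0.326). MRL/mpj replicate 3 lay above the 2 lower MRL/lpr libraries, and without it Cox4i1 was called higher, with a log2 fold change of 0.55 (edgeR adjusted p = 0.0416). Cox4i2, the form known from lung and hypoxic cells, was near 1 CPM in both strains, at 1.34 ± 0.433 CPM against 1.08 ± 0.129 CPM (SD, n = 3 each). The muscle form Cox7a1 was at 0.563 ± 0.305 CPM against 0.980 ± 0.216 CPM, beside 20.5 ± 0.854 CPM and 20.04 ± 1.02 CPM of Cox7a2 (SD, n = 3 each). Cox6b2, known from testis, was at 2.03 ± 0.252 CPM against 2.56 ± 0.692 CPM, beside 39.0 ± 4.01 CPM and 38.2 ± 3.48 CPM of Cox6b1 (SD, n = 3 each). In all 3 pairs the libraries of the strains overlapped for the minor isoform.

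Cox8b, another muscle form, had 23, 16 and 0 counts in MRL/lpr and 69, 18 and 0 in MRL/mpj, so both strains had a library at 0. Cox8a was at 37.1 ± 4.73 CPM against 40.1 ± 3.01 CPM (SD, n = 3 each). Ndufa4, named for complex I but a subunit of complex IV, was at 30.1 ± 0.639 CPM against 31.3 ± 2.73 CPM (SD, n = 3 each). Its paralog Ndufa4l2, a hypoxia-inducible gene, was at 2.53, 2.25 and 4.28 CPM against 4.03, 4.26 and 4.73 CPM. MRL/lpr replicate 3 lay within the control range, and the fold change of -0.52 (SE 0.28, edgeR adjusted p = 0.238) passed the test only without that library. Cox7a2l, a factor that joins complexes III and IV into supercomplexes, was at 57.0, 62.5 and 65.4 CPM against 79.9, 81.2 and 67.5 CPM. Its libraries did not overlap, and the difference of -0.31 (SE 0.10) had an edgeR adjusted p of 0.0524, just above the threshold. It was called lower in 8 of 15 other fits, DESeq2 among them.

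**Figure D2:**
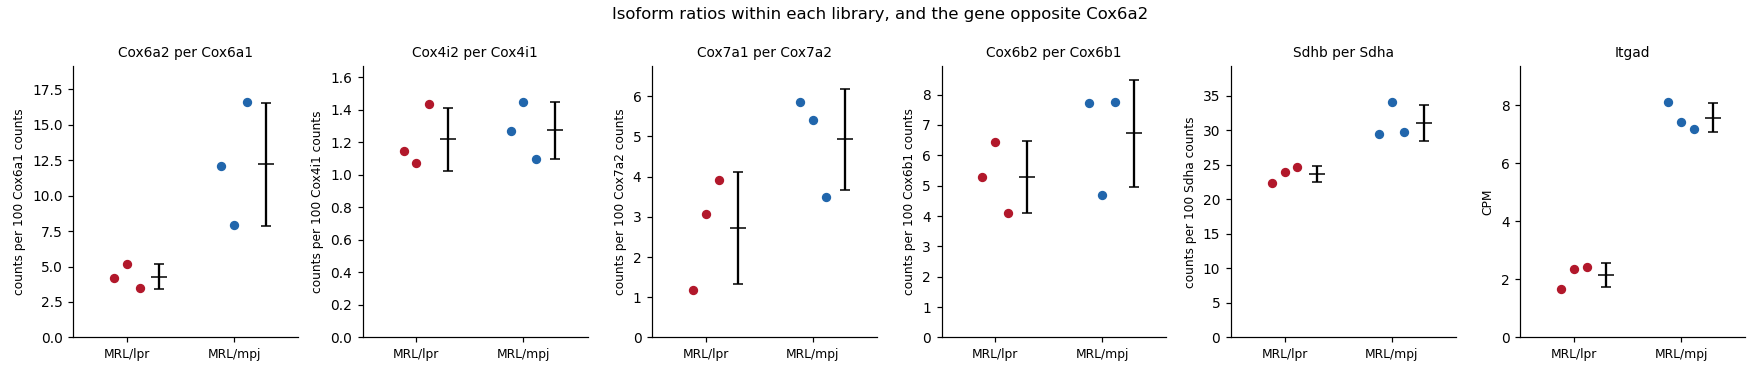
Counts of 1 gene per 100 counts of its partner within each library for 4 isoform pairs of complex IV and for Sdhb per Sdha, and CPM of Itgad, which shares exonic bases with Cox6a2 on the opposite strand (y axes start at 0, points are libraries, bars are mean and SD, n = 3 per strain). Cox6a2 per Cox6a1, Sdhb per Sdha and Itgad separate the strains, and the other 3 ratios overlap.

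Complex V contributed 18 genes, of which 17 were tested and 3 fell (17.6%, against 9.06% of all genes tested), with a median of -0.19. Without Atp5s, which is not a subunit, 2 of 16 fell (12.5%). Atp5a1 and Atp5b encode the alpha and beta subunits that form the catalytic head. They were close in the strains, at 289 ± 27.9 CPM against 298 ± 6.71 CPM and at 297 ± 8.93 CPM against 305 ± 8.73 CPM (SD, n = 3 each), and neither passed the test. Atp5e, the small epsilon subunit of the central stalk, was at 23.2, 22.0 and 24.7 CPM in MRL/lpr and at 30.1, 26.6 and 30.7 CPM in MRL/mpj. It fell by 0.32 on the log2 scale (SE 0.10, edgeR adjusted p = 0.0498), with no overlap, and it lost its call in 10 of 15 other fits.

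The proton-carrying c ring is made from a protein encoded by 3 genes, Atp5g1, Atp5g2 and Atp5g3. All 3 had a negative fold change. Atp5g3 was at 41.2, 34.4 and 38.1 CPM against 48.8, 45.6 and 47.3 CPM, without overlap, and fell by 0.32 (SE 0.09, edgeR adjusted p = 0.0376). Atp5g1 (-0.24, SE 0.13) and Atp5g2 (-0.20, SE 0.13) did not pass. The value of Atp5g1 is uncertain, because a copy elsewhere in the genome held 3794 counts against 6858 for Atp5g1 itself. The count of Atp5g3 per 100 of Atp5g2 was 72.6 ± 9.13 in MRL/lpr and 79.0 ± 10.7 in MRL/mpj (SD, n = 3 each, exact permutation test, two-sided, p = 0.5).

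Atp5s, known as coupling factor B and not a subunit, was a low gene at 2.64, 3.08 and 2.63 CPM in MRL/lpr and 4.90, 5.82 and 5.21 CPM in MRL/mpj. The strains were well apart, and it fell by 0.93 on the log2 scale (SE 0.20, edgeR adjusted p = 0.0100). The 4 tested genes of the peripheral stalk, which holds the head against rotation, had a median of -0.18 and no call. Among them, Atp5j was at 30.8, 32.7 and 17.5 CPM against 35.3, 37.9 and 26.6 CPM, with MRL/lpr replicate 3 below the others. Atp5j shares 397 of its 3130 exonic bases with Gabpa on the opposite strand, and Gabpa was also lowest in that library, at 48.8 CPM against 63.4 to 69.2 CPM in the other libraries.

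The 9 genes called lower lie on several chromosomes of GRCm38 in GENCODE M21. Of complex I, the annotation places Ndufaf7 (ENSMUSG00000024082) at chr17:78937136-78948052 on the plus strand, Ndufc2 (ENSMUSG00000030647) at chr7:97400003-97407802 on the plus strand, Ndufa13 (ENSMUSG00000036199) at chr8:69894180-69902558 on the minus strand and Ndufa8 (ENSMUSG00000026895) at chr2:36036326-36049406 on the minus strand. Of complexes II and IV, it places Sdhb (ENSMUSG00000009863) at chr4:140961203-140979193 on the plus strand and Cox6a2 (ENSMUSG00000030785) at chr7:128205435-128206387 on the minus strand. Of complex V, it places Atp5s (ENSMUSG00000054894) at chr12:69724950-69744660 on the plus strand, Atp5g3 (ENSMUSG00000018770) at chr2:73908447-73911326 on the minus strand and Atp5e (ENSMUSG00000016252) at chr2:174461072-174464105 on the minus strand.

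**Figure D3:**
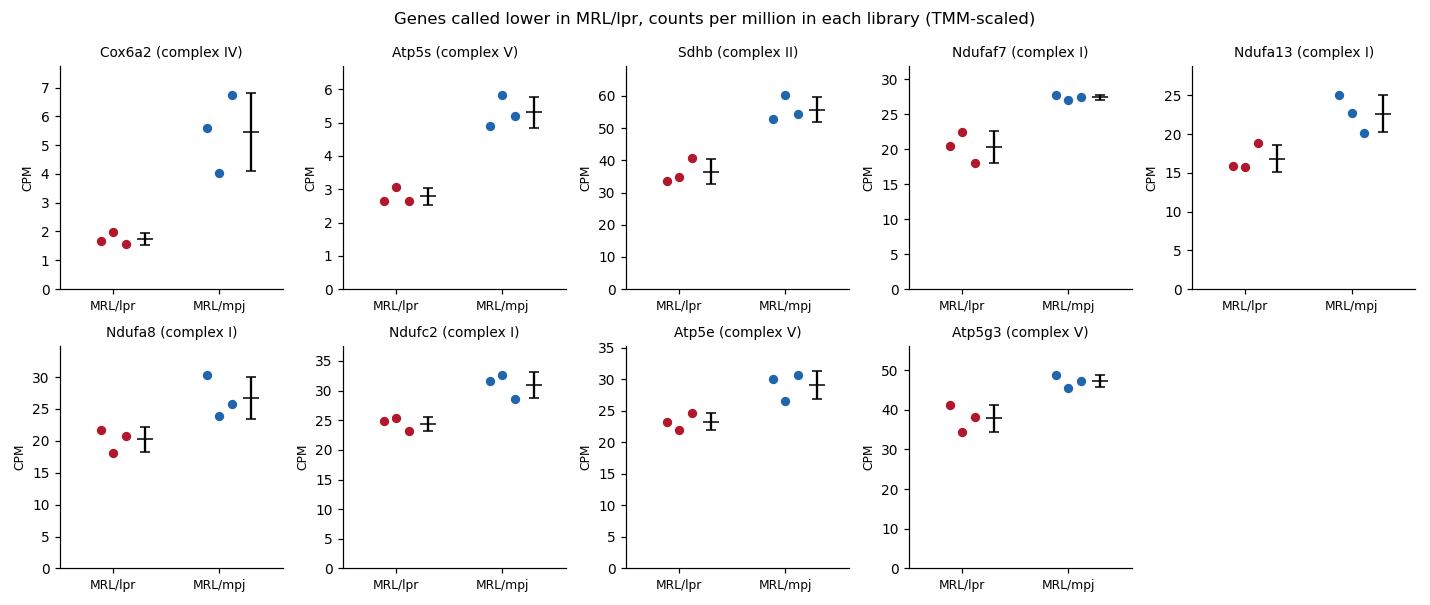
CPM in each library (TMM-scaled, y axes start at 0) for the 9 genes called lower, with mean and SD beside the points (n = 3 per strain). In each panel all MRL/lpr libraries lie below all MRL/mpj libraries, with the widest relative gap for Cox6a2 and Atp5s.

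The summed level of the genes was slightly lower in MRL/lpr, and whether the libraries overlapped depended on the scaling. All 94 genes together reached 2831, 2801 and 3129 CPM in MRL/lpr and 3300, 3207 and 3072 CPM in MRL/mpj. MRL/lpr replicate 3 lay above the lowest control, and the log2 difference was -0.13 (exact permutation test, two-sided, p = 0.2). With scaling by library size only it was -0.25 and in summed FPKM -0.26, both without overlap between the strains (exact permutation test, p = 0.1 for each). By complex, the summed subunits gave log2 differences of -0.16 for complex I, -0.27 for complex II, -0.08 for complex III, -0.01 for complex IV and -0.10 for complex V, with exact permutation p-values of 0.1, 0.1, 0.6, 0.9 and 0.2. The smallest p this design allows is 0.1, and it was reached where the libraries did not overlap. The most abundant genes in the sums of complexes IV and V by CPM were Cox4i1, Atp5a1 and Atp5b, with log2 fold changes of 0.32, -0.04 and -0.04.

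**Figure D4:**
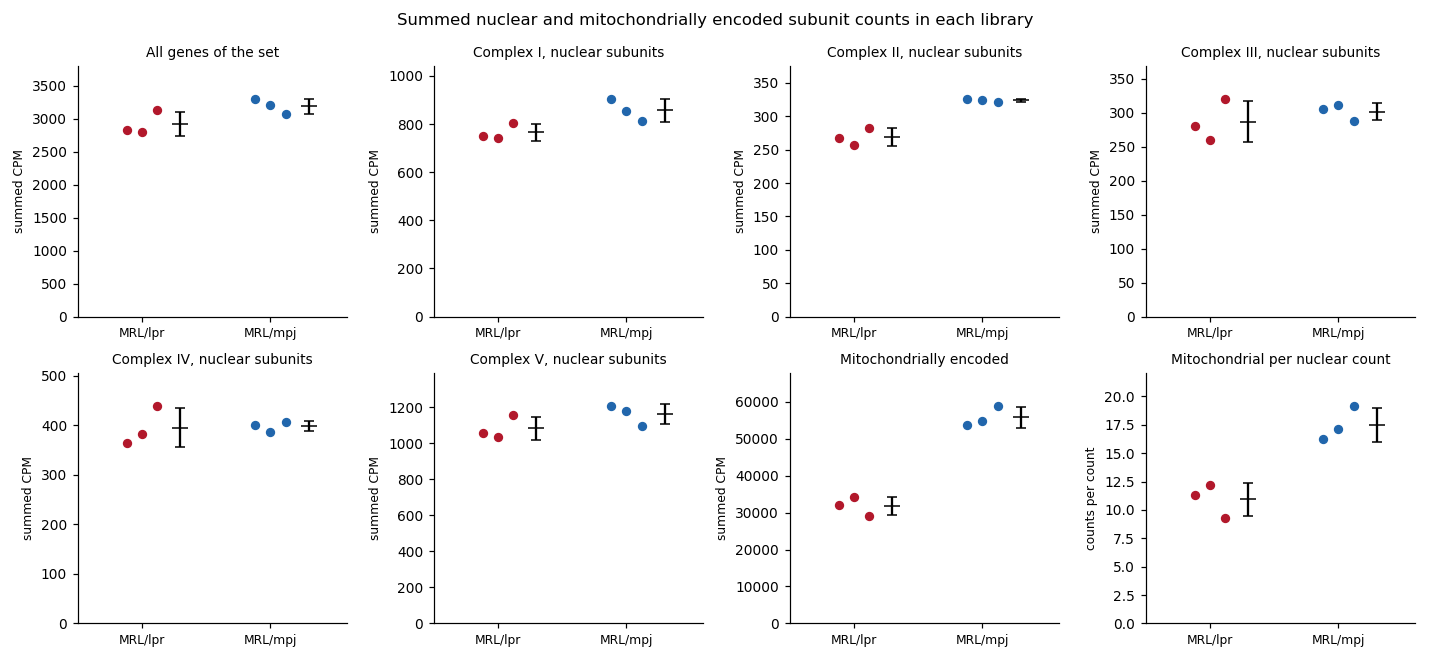
Summed CPM in each library for all 94 genes, for the nuclear subunits of each complex and for the 13 mitochondrially encoded subunits, and the number of mitochondrially encoded counts per count of the 94 genes (y axes start at 0, points are libraries, bars are mean and SD, n = 3 per strain). Complexes I and II and both mitochondrial panels separate the strains, and the sums of complexes III, IV and V overlap.

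The mitochondrially encoded partners differed far more than the nuclear genes. All 13 protein-coding genes of the mitochondrial genome had lower levels in every MRL/lpr library than in any MRL/mpj library, and 10 of the 13 fell, with log2 fold changes from -0.70 to -1.11 over the 13. Over all genes tested, 19.4% were lower without overlap and 9.06% were called lower. mt-Co1, the catalytic subunit of complex IV, was at 11082, 11289 and 11357 CPM in MRL/lpr and at 18347, 17949 and 18648 CPM in MRL/mpj, and it fell by 0.70 (SE 0.05). mt-Nd1 of complex I was at 2939 ± 72.0 CPM against 5551 ± 164 CPM (SD, n = 3 each) and fell by 0.92 (SE 0.05). mt-Nd4l, mt-Atp6 and mt-Atp8 missed the threshold, with edgeR adjusted p-values of 0.0554, 0.0632 and 0.0554. Within each library, there were 11.3, 12.2 and 9.31 mitochondrially encoded counts per count of the 94 nuclear genes in MRL/lpr, and 16.2, 17.1 and 19.2 in MRL/mpj. This ratio does not depend on the scaling. Its log2 difference was -0.68 (exact permutation test, two-sided, p = 0.1), and the subunits of complexes I, III and IV taken alone gave -0.75, -0.75 and -0.73, each without overlap between the strains. Complex V gave -0.74 with overlapping libraries (exact permutation test, p = 0.2).

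Genes that serve the respiratory chain from outside the rule were counted in the same fit, which called 9.06% of all genes tested lower and 11.1% higher. Of 8 matched complex I assembly genes, 2 fell and 0 rose, namely Tmem126b (-0.56, SE 0.14, edgeR adjusted p = 0.0219) and Tmem186 (-0.56, SE 0.17, edgeR adjusted p = 0.0442), both parts of the assembly machinery of the membrane arm. Among 25 complex IV assembly genes, 2 fell (8.0%) and 0 rose. Cox11, a copper chaperone, was at 2.87, 2.23 and 2.32 CPM against 4.28, 4.66 and 6.50 CPM and fell by 1.06 (SE 0.24, edgeR adjusted p = 0.0138). Lrpprc, which stabilises mitochondrial mRNAs, fell by 0.27 (SE 0.08, edgeR adjusted p = 0.0493). None of 4 complex II assembly genes, 7 further complex III genes and 5 complex V assembly or inhibitor genes was called.

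Of 6 carriers and supercomplex factors, 1 fell (16.7%, against 9.06% of all genes tested). Slc25a4, an ADP/ATP carrier, was at 65.6, 62.9 and 63.9 CPM against 85.6, 82.9 and 78.3 CPM and fell by 0.36 (SE 0.07, edgeR adjusted p = 0.00730). Of 16 transcriptional regulators of respiratory genes, Tfb2m, a factor of mitochondrial transcription, fell by 0.84 (SE 0.15, edgeR adjusted p = 0.00328), from 15.8 ± 1.03 CPM in MRL/mpj to 8.79 ± 1.38 CPM in MRL/lpr (SD, n = 3 each). The other 15 did not pass, so 6.25% of this list was called lower, under the 9.06% of all genes tested. Nrf1 and Gabpa, factors whose motifs were searched in the promoters, had log2 fold changes of -0.01 (SE 0.10) and -0.14 (SE 0.12). Of 11 mitochondrial genes outside respiration, 2 rose and 0 fell, where 11.1% of all genes tested were called higher. Hspd1, the mitochondrial chaperonin HSP60, rose by 0.69 (SE 0.11, edgeR adjusted p = 0.00233), and Phb, prohibitin, rose by 0.44 (SE 0.12, edgeR adjusted p = 0.0279). AA467197, the inducible paralog of Ndufa4, was near 1 CPM in both strains and did not pass.

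Levels were compared between genes on the deposited FPKM scale, which divides by gene length. Atp5a1 had the highest level of complex V, at 83.6 FPKM over the 6 libraries, ahead of Atp5b at 63.5 FPKM. In complex IV, Cox4i1, Cox8a and Cox6a1 stood at 56.0, 55.7 and 55.5 FPKM, and their order lay within the spread of the libraries. Sdha led complex II at 36.2 FPKM, followed by Sdhd at 32.7, Sdhb at 18.5 and Sdhc at 10.6 FPKM. Uqcrh led complex III at 29.6 FPKM, close to Uqcrc2 at 28.0 FPKM. In complex I, Ndufc2 and Ndufa2 stood at 33.0 and 32.5 FPKM and could not be ordered within their spread. The lowest levels of complex I were those of the assembly factor Ndufaf2 at 1.12 FPKM and the accessory subunit Ndufb2 at 1.14 FPKM, and the lowest of complex IV was that of Cox8b at 1.05 FPKM. Ndufb2 has 5628 annotated exonic bases and Ndufa2 has 572, so their FPKM differ more than their counts. Ndufb2 had means of 5.92 CPM in MRL/lpr and 8.47 CPM in MRL/mpj, and Ndufa2 of 20.8 and 20.9 CPM. Cox6a2, at 4.82 FPKM over all libraries, was the highest of the tested tissue isoforms.

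**Figure D5:**
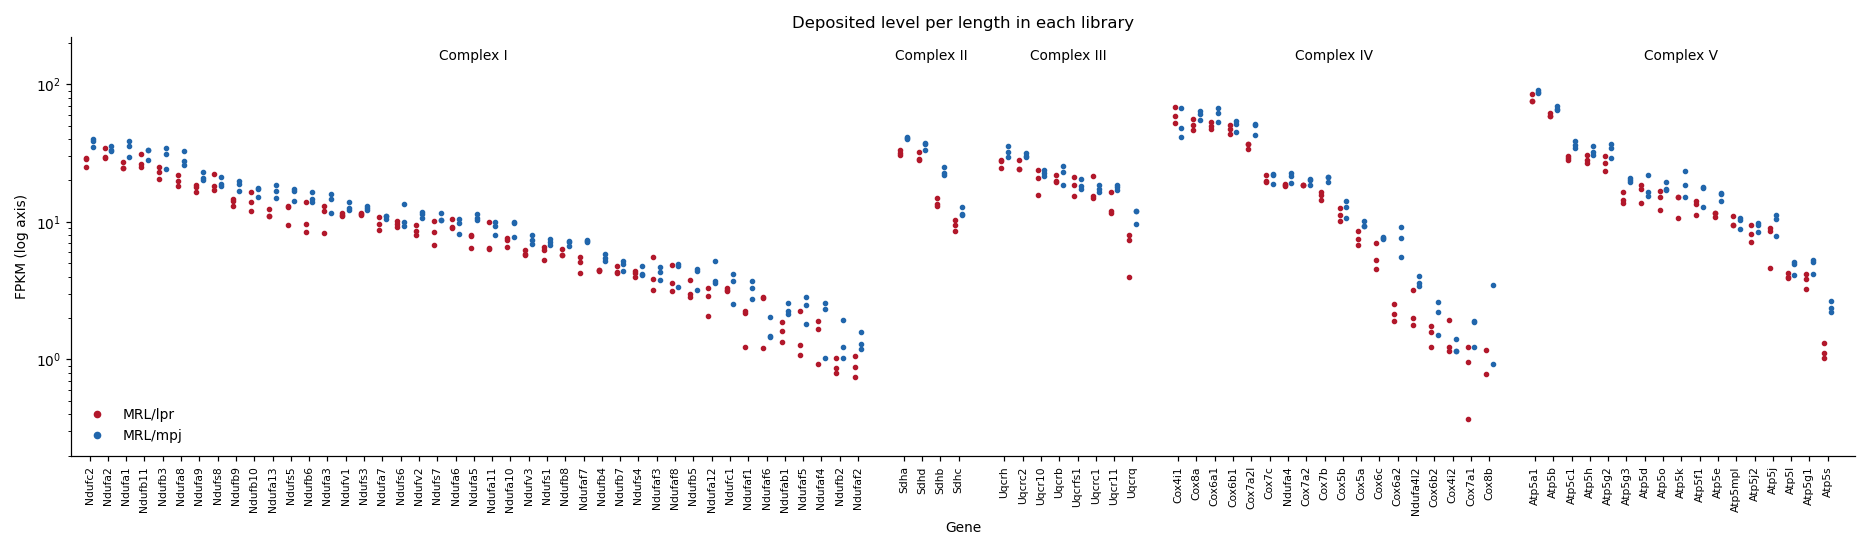
Deposited FPKM (log axis) of 90 of the 91 tested genes in each library, ordered by mean level within each complex, with MRL/lpr in red and MRL/mpj in blue (3 points each, values of 0 not drawn). Atp5a1 lies highest at a mean of 83.6 FPKM, and Ndufaf2 and Cox8b lie lowest in complexes I and IV.

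Ndufa1, Ndufb11 and Cox7b, the members on the X chromosome, are given because of the Xist difference between the libraries. None was called, and their log2 fold changes were -0.31 (SE 0.14), -0.07 (SE 0.13) and -0.28 (SE 0.10). The median over 621 tested genes of the X chromosome was -0.10. Cox7b did not overlap between the strains, at 19.99, 23.1 and 23.1 CPM in MRL/lpr against 27.5, 25.5 and 27.4 CPM in MRL/mpj.

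Markers of other cells also differed between the strains, in a fit that called 9.06% of all genes tested lower and 11.1% higher. All 6 choroid plexus markers fell, with summed levels of 350 to 361 CPM in MRL/lpr and 1048 to 1131 CPM in MRL/mpj. Of 6 neuronal markers, 2 fell and the sums were 22.3 to 28.3 CPM against 37.6 to 43.0 CPM. Of 5 oligodendrocyte markers, 2 fell (84.0 to 99.3 CPM against 123 to 152 CPM), and of 5 astrocyte markers 1 fell (89.0 to 132 CPM against 167 to 170 CPM). All 5 cycling-cell markers rose, with sums of 162 to 166 CPM against 36.3 to 39.8 CPM. The lists of B lineage, T cells, neutrophils, monocytes, endothelium and erythrocytes each held 1 or 2 genes that rose and none that fell. Endothelial sums were 1174 to 1346 CPM in MRL/lpr and 1060 to 1095 CPM in MRL/mpj. For erythrocytes they were 685 to 1134 CPM against 610 to 674 CPM, with MRL/lpr replicate 3 highest. Neutrophils had 535 to 615 CPM against 416 to 476 CPM, and monocytes 41.8 to 55.0 CPM against 28.2 to 31.8 CPM. B lineage had 22.8 to 27.1 CPM against 9.53 to 11.3 CPM, and T cells 5.76 to 8.90 CPM against 0.980 to 1.73 CPM. No marker was at 0 in all libraries. The part of these cells in the lower levels of the nuclear and mitochondrial genes was not tested, and in bulk RNA fewer cells of a type and less RNA per cell cannot be told apart.

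Many of these genes have close copies elsewhere in the genome. In GENCODE M21, 25 of the 94 had at least 1 other locus with a transcript stretch of at least 150 bases at 95% identity or more, and for 22 of them this included a pseudogene. Among the 9 genes called lower, Ndufaf7 was the one with such a stretch, and its 8 other loci, none of them a pseudogene, held 1648% of its own counts. The copies held over 5% of the gene's own counts for 12 genes. Cox7a2l had 20036 counts over the 6 libraries and its copy 10324, so the value of Cox7a2l is uncertain. Ndufa12 had 1774 counts and its copy 2833, and Atp5g1 had 6858 counts and its copy 3794. The values of Ndufaf7, Ndufa12 and Atp5g1 are uncertain for the same reason. Exons on the opposite strand overlapped 29 of the 94 genes, among them Cox6a2, Ndufa13, Cox4i1 and Atp5a1. Ndufa13 shares 375 of 1251 exonic bases with Tssk6, which was at or below 1.04 CPM in every library.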

How the data were processed

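Per gene and library, the authors deposited raw counts, which are whole numbers, and FPKM, which they derived from counts, depth and gene length. RNA is described as depleted of rRNA and made into stranded total RNA libraries, whereas the methods of the paper say that mRNA was purified. The submitters' processing notes name cutadapt 1.9.3, HISAT2 2.0.4, Cuffdiff 2.2.1, Cufflinks and GRCm38, and the methods name DESeq2. The counting tool, its annotation and its use of strand are not given in the sources used here. Values of 4 counts were more frequent (7351) than values of 3 (2240) or 5 (1421), so 1 fragment may be worth several counts, and counts divided by 4 were tried as an alternative. Symbols, exonic lengths and positions came from GENCODE M21 on GRCm38 (55141 of 55401 identifiers matched). The 260 others held at most 0.0369% of the counts of any library.

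MRL/lpr was set against MRL/mpj in edgeR 4.0.16 (R 4.3.3) over all genes passing filterByExpr (minimum count 10, minimum total 15), with TMM and robust quasi-likelihood fits without covariates, and with Benjamini-Hochberg adjustment. A gene was called at an adjusted p under 0.05. The common biological coefficient of variation was 0.26. The scripts were tested on simulated data, where the share of false calls exceeded the nominal level when dispersions varied from gene to gene and did not when they followed the trend, so calls with an adjusted p near the threshold are less certain than that p says. Alternatives were other scalings, no filter, DESeq2 1.42.0, offsets for length and GC content, a replicate block and leaving out each library. Genes with values in every library were those called, the leading gene of each complex by FPKM, the Sdh genes, the isoform families and the X-linked genes, with a few others chosen after their values were seen (Ndufv2, Ndufs8, Ndufaf4, Ndufaf6, Ndufa12, Ndufb2, Uqcrc1, Uqcrc2, Uqcrfs1, Uqcrq, Atp5b, Atp5g1, Atp5g2, Atp5j and the overlapping genes). The genes and lists were chosen with earlier results of these data known. Intervals and errors cover the spread of libraries only. Processed pseudogenes (12) and Ndufb1-ps matched the prefixes and were left out. Values of 1 gene that was counted are not reported here.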

Additional observations from a re-analysis of the deposited data

How the results depend on the processing

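The median log2 fold change of the 91 genes stayed negative under every alternative run. Of the 9 genes called, Sdhb, Cox6a2 and Atp5s kept their call throughout. The number of genes called lower was 9 in the fit reported. It was 19 and the median -0.32 with scaling by library size only, where 2 genes passed the minimum of 1 on the log2 scale. It was 16 with offsets for length and GC content (17.6%, against 9.48% of all genes) and 5 with the replicate block (5.49%, against 6.69%). Replicate numbers did not pair the libraries, since same-numbered libraries had correlations of -0.04, -0.02 and -0.03 in their deviations. With the replicate block and both offsets together the count was 10 (11.0%, against 7.47%). Leaving out 1 library gave 3 to 12 genes lower (5.75% to 9.64% of all genes lower in the same fits), 0 to 1 higher (Cox4i1 without MRL/mpj replicate 3, against 7.95% to 11.6% of all genes), 1 to 2 past the minimum of 1, medians of -0.22 to -0.13, and log2 differences of the summed level of -0.18 to -0.10. The summed level differed by -0.25 with scaling by library size only and by -0.26 in summed FPKM (p = 0.1 for both, exact permutation test). With 3 libraries per strain, exact permutation tests cannot go below 0.1, and genes near 1 CPM had standard errors from 0.37 to 1.52 on the log2 scale. The cause of these shifts was not tested.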

Other observations

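Ndufb1-ps, named as a pseudogene and annotated as a bidirectional promoter lncRNA, was left out by the rule but had as many counts as several subunit genes. Its levels were 7.78, 7.86 and 12.3 CPM in MRL/lpr and 10.8, 10.1 and 7.07 CPM in MRL/mpj, with a log2 fold change of -0.00355 (SE 0.23). The libraries of the strains overlapped. The level in single libraries also departed for genes that did not pass the test. Ndufaf4, an assembly factor of complex I, had 215 counts in MRL/mpj replicate 2 against 503 and 559 in the other control libraries. Ndufb2 had 584 counts in MRL/mpj replicate 2 against 383 and 327. For Uqcrc1, MRL/lpr replicate 3 held 4552 counts and the other libraries of the strain 3446 and 3307.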
